A study of Mus musculus with 10 samples.

Results

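Astrocytes were the 5302 nuclei, of 20503 in all, whose deposited cluster name holds the word for astrocyte. The authors split them into 2 numbered clusters, Astrocytes (1) with 4591 nuclei and Astrocytes (2) with 711 nuclei. Nuclei were taken from tissue punches that held the paraventricular thalamus (PVT) and tissue next to it, from C57BL/6J mice aged 12 weeks. The labels name no genotype and no treatment. The labels name 6 libraries as female replicates 1 to 6. The other 4 libraries, replicates 1 to 4, carry no sex in their titles and are male in the deposited metadata, and they are called male here. The methods describe tissue of 4 mice pooled for each sample, with 4 biological replicates, and do not name the 6 female libraries. Pooling is assumed here for these as well. A library is then the replicate, and a p-value measures the spread between libraries of pooled mice. The counts are unique molecular identifiers (UMIs), each standing for 1 captured RNA molecule, and UMIs were summed over the astrocytes of a library before any comparison.

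Astrocytes are glial cells that take up glutamate and GABA released at synapses, buffer potassium and water, store glycogen and supply neurons with lactate and lipids. They are joined to each other by gap junctions made of connexin 43 and connexin 30, and they respond to transmitters and to Sonic hedgehog released by neurons. Their transcripts differ with brain region, and thalamic astrocytes are known for the GABA transporter GAT-3 and for transcription factors laid down when the diencephalon is patterned.

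The astrocyte sums held 1613814, 718826, 4222218 and 6082103 UMIs in male replicates 1 to 4. In female replicates 1 to 6 they held 662071, 578074, 774816, 633005, 1174036 and 695079 UMIs. The median astrocyte had 3006.5 UMIs and 1752 genes, against 11157 UMIs in the median neuron. The libraries did not form a single set of replicates. Astrocytes of male libraries had higher medians, 2891 to 5203 UMIs per nucleus, than those of female libraries, 1730.5 to 3144.5 UMIs, and the groups overlapped. The median percent of mitochondrial transcripts in astrocytes was 0.227, 2.60, 0.389 and 0.712 in male replicates 1 to 4 and 1.78 to 2.45 in female libraries. Male replicate 2 was thus apart from the other male libraries and above all 6 female libraries. Across genes, the median correlation between astrocyte sums was 0.897 for pairs of male libraries, 0.932 for pairs of female libraries and 0.846 for pairs from different sets. Genes are not independent replicates, and sums of unlike depth enter each pair. The sets also differed in which genes had counts, with 1937 genes at 20 UMIs or more in male nuclei and at 0 in female nuclei, and 636 genes the other way round. Unless stated, all fits below were limited to the 17513 genes with at least 20 UMIs in each set, which hold 96.6% of astrocyte UMIs. Sums over marker lists hold all members of a list, also those at 0 in the astrocytes of 1 set. There were 46 cell barcodes found in more than 1 library, on 92 nuclei of which 18 were astrocytes, and 3 of these barcodes were astrocytes in both libraries.

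Of all nuclei in a library, astrocytes were 24.7 ± 4.16% (mean and SD of the 10 libraries). The share was 34.3%, 23.1%, 26.1% and 28.7% in male replicates 1 to 4. In female libraries it was 23.3%, 20.5%, 23.0%, 24.0%, 20.2% and 23.9%. The 3 highest shares were those of male replicates 1, 3 and 4, and male replicate 2 lay among the female libraries. The female mean of 22.5% was below the male mean of 28.0%, a difference of -5.53 percentage points (exact two-sided permutation test over 210 splits, p = 0.0381). With nuclei of at most 1% mitochondrial transcripts it was -16.7 points (p = 0.0381, exact permutation test). In female libraries the median mitochondrial percent was 1.78 to 2.45 in astrocytes and 0.529 to 0.995 in neurons. In male replicate 2 it was 2.60 and 0.621. The limit itself thus lowers the astrocyte share there, and it kept 210 female and 2844 male astrocytes. The value at the limit is not a separate check of the difference. Without male replicate 1 the difference was -3.45 points with an exact permutation p of 0.0952, and p also passed 0.05 without male replicate 3 or 4 or female replicate 2, 3 or 5. Male replicates 1 and 2 held 895 and 875 nuclei and male replicates 3 and 4 held 4019 and 7213, while female libraries held 1049 to 1615. A share of nuclei also depends on which nuclei passed the authors' filters, and sex and any difference between the sets in library preparation or counting cannot be told apart in this design.

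The label was checked against 20 astrocyte markers and against markers of 8 other cell types. Summed over the list, astrocyte markers took 24401 ± 1882 CPM (counts scaled to the total of each sum, mean ± SD, n = 10) and were detected in all libraries. Of the 19 markers that passed the filter on low counts, 16 were higher in astrocytes than in every other cell type in every library, with a median log2 fold change of 4.39 over the 19. The list includes *Agt* and *A2m*, by which the study named these nuclei. Without them 14 of 17 were highest, with a median of 4.27, and since the nuclei were clustered on their transcripts these values are a description. The other 3 had a higher mean in ependymal cells, which line the ventricle. *Sox9*, a glial transcription factor, was at 193 ± 84.8 CPM in astrocytes and 357 CPM in ependymal cells. *S100b*, a calcium-binding protein, was at 135 and 426 CPM, and *Mlc1*, a membrane protein of astrocyte endfeet, at 250 and 294 CPM. *Gfap*, the intermediate filament of fibrous astrocytes, did not pass the filter. It was at 39.1 ± 18.1 CPM, and 2.71 ± 1.56% of astrocytes thinned to 1000 UMIs held a *Gfap* UMI, against 0.170% of neurons.

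Markers of other cell types were also counted in the astrocyte sums. The 10 neuron markers summed to 985, 935, 2066 and 2844 CPM in male replicates 1 to 4 and to 619 to 1407 CPM in female libraries, against 21513 ± 1264 CPM in neurons, where male replicate 4 had 19987 CPM. *Meg3* was the most abundant of them in 6 libraries and *Grin2b* in 4. *Tubb3* was at 0 in the 6 female libraries, in neurons as well as in astrocytes, and at 19.3 to 126 CPM in male astrocytes. Oligodendrocyte markers summed to 280 ± 63.7 CPM, led by *Cnp* in 7 libraries, and OPC markers to 195 ± 49.4 CPM, with *Pdgfra* and *Cspg4* at 0 in 2 libraries each. Microglia markers summed to 117 ± 12.7 CPM in male and 277 ± 87.7 CPM in female libraries. *Csf1r* was at 0 in 2 libraries, and *Tmem119* and *Inpp5d* were at 0 in 5 each. Endothelial markers summed to 15.9 ± 5.69 CPM, with *Ly6c1* at 0 in 7 libraries and *Cldn5* in 6. Fibroblast markers summed to 134 ± 16.2 CPM, against 7.12 ± 1.78 CPM in neurons. *Cped1* took 48.5% to 72.4% of the astrocyte sum across libraries, while *Dcn* and *Lum* were at 0 in 6 libraries each. Ependymal markers summed to 34.4 ± 16.2 CPM in male and 88.3 ± 32.8 CPM in female libraries, and in neurons to 20.5 ± 5.96 and 45.2 ± 16.1 CPM. Their member *Cfap299* went the other way, at 4.70 to 10.5 CPM in male astrocytes and at 0 in female astrocytes and neurons. Tanycyte markers summed to 123 ± 12.7 CPM, led by *Nr2f1* in all 10, with *Rax* at 0 in 8. No member of these 8 lists was highest in astrocytes. Doublet calls marked 71 astrocytes (1.34%), 50 of them in male replicate 4.

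The study named astrocytes by *Agt* and *A2m*. *Agt* encodes angiotensinogen, the precursor from which renin releases angiotensin I, and in the brain it is made mainly by astrocytes. *A2m* encodes alpha-2-macroglobulin, a secreted inhibitor that traps proteases. *Agt* (ENSMUSG00000031980.9) spans chr8:124556534-124569706 on the minus strand of mm10, and *A2m* (ENSMUSG00000030111.9) chr6:121635376-121679227 on the plus strand. The *Agt* promoter is shown because *Agt* is among the genes that the study gives as astrocyte markers and among the leading genes by fold change. In RefSeq (GRCm38.p6) it lies at chr8:124569657-124569956, minus strand, from 250 bases before to 50 bases after the annotated start, and capitals mark the only TATAAA on either strand, whose first base is at position -30 from the start.
*Agt*: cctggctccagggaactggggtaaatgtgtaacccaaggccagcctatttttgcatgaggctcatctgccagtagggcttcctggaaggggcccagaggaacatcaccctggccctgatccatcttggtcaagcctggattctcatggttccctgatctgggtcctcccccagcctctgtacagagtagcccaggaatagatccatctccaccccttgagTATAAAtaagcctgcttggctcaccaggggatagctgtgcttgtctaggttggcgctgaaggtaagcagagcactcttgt
The letters TATAAA, searched on both strands, occur in 4473 of 32851 RefSeq promoters of this length (13.6%), and in 3 of the 23 leading astrocyte genes with a promoter in that table, *Agt*, *Bmpr1b* and *Itih3*.

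In astrocytes *Agt* was at 764, 2232, 2008 and 905 CPM (edgeR's CPM after TMM scaling, used for all levels of single genes) in male replicates 1 to 4. In female libraries it had a lowest value of 1575 CPM, a median of 2111 and a highest of 2304. Male replicates 1 and 4 were the lowest of all libraries, and male replicates 2 and 3 lay within the female range. The mean over 10 libraries was 1798 ± 557 CPM, against 106 ± 93.5 CPM in fibroblasts (n = 8 libraries), 56.4 ± 32.4 in oligodendrocytes (n = 10) and 16.4 ± 9.23 in neurons (n = 10). The log2 fold change of astrocytes against the mean of the other types, taken on the log scale, was 5.25 (SE 0.15), with astrocytes highest in 10 of 10 libraries. *A2m* was at 146, 186, 100 and 105 CPM in male replicates 1 to 4, with a female range of 104 to 226 CPM around a median of 152. Its groups overlapped. The log2 fold change against the other types was 5.02 (SE 0.18), again with astrocytes highest in 10 of 10 libraries, and the next type was fibroblasts at 16.5 ± 26.6 CPM. Since the cluster names were made from these genes in these nuclei, folds against other types are given as descriptions with no p.

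The markers differed in how many nuclei showed them. After each nucleus was thinned to 1000 UMIs, which left 5137 astrocytes, 72.5 ± 13.3% of astrocytes held an *Agt* UMI, between 44.1% and 82.3% across libraries. The share was 1.43% in neurons and 3.01% in oligodendrocytes, and the source of the *Agt* UMIs in these types was not tested. *A2m* was seen in 11.3 ± 3.42% of thinned astrocytes and in 0.183% of neurons. Without thinning the shares were 92.4% for *Agt* and 25.6% for *A2m*, and at 2000 UMIs they were 87.1% and 19.1%. Thinning left out 165 astrocytes, 61 male and 104 female, and the medians before thinning were 3053 UMIs in the astrocytes kept and 11179.5 in neurons.

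**Figure D1:**
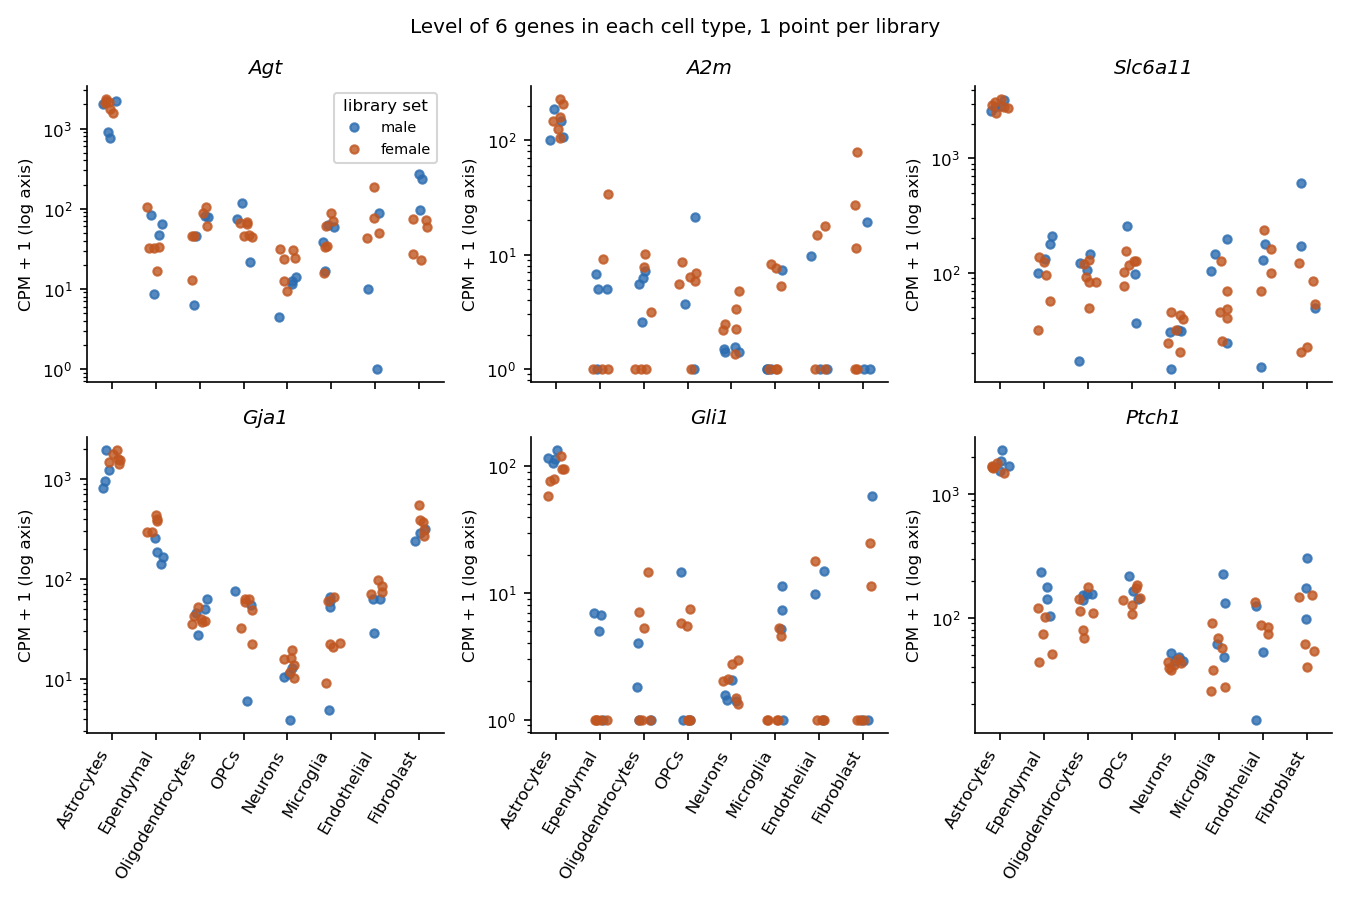
Level of 6 genes (CPM + 1, log axis) in the summed UMIs of each of 8 cell types, with 1 point per library, male in blue and female in orange. In all 6 panels the astrocyte points lie above those of the other types, though for *Gli1* the lowest astrocyte point, at 57.6 CPM, is next to the highest fibroblast point, at 57.5 CPM. For *Agt* male replicates 1 and 4 are the lowest astrocyte points.

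Of 9499 genes tested between cell types, 344 (3.62%) were highest in astrocytes in every library with a log2 fold change over 1. The 30 with the largest fold change at 50 CPM or more included 22 with gene names, and the other 8 were predicted genes. *Aqp9*, an aquaglyceroporin, was at 53.0 ± 10.7 CPM with a log2 fold change of 6.32. It was at 0 in all endothelial and fibroblast sums and at 3.56 ± 4.76 CPM in ependymal cells, the next type. As the mean of the other types is taken on the log scale, types near 0 raise a fold. *Slc4a4*, the sodium bicarbonate cotransporter NBCe1, was at 4302 ± 555 CPM (log2 fold change 4.87), *Slc6a11*, the GABA transporter GAT-3, at 2881 ± 256 CPM (5.10), and *Slc7a10*, a transporter of small neutral amino acids including serine, with a log2 fold change of 5.23. *Gjb6*, connexin 30, had a log2 fold change of 4.80, and its levels by library are given with the comparison of the sets.

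Receptors and signalling genes formed the next group. *Lgr6*, a receptor for R-spondins, was at 235 ± 58.3 CPM (log2 fold change 5.65), and *Bmpr1b*, a type I receptor for bone morphogenetic proteins, at 650 ± 134 CPM (5.10). *Gli1* and *Gli2*, transcription factors of the Hedgehog pathway, had log2 fold changes of 5.05 and 5.02. The orphan receptor *Gpr179* was at 69.2 ± 18.9 CPM (5.36). Enzymes were *Etnppl*, which breaks down phosphoethanolamine, at 620 ± 128 CPM (5.40), *Cyp4f15*, a cytochrome P450, at 179 ± 30.9 CPM (5.51), *Pla2g7*, which hydrolyses platelet-activating factor, at 1480 ± 355 CPM (4.70), and *Pipox*, a peroxisomal oxidase of pipecolic acid. *Hif3a*, of the hypoxia-inducible factors, was at 141 ± 41.8 CPM (5.03) and *Dbx2*, a homeobox gene, at 218 ± 46.9 CPM (4.69). *Itih3*, a heavy chain of the inter-alpha-trypsin inhibitors, was at 1113 ± 214 CPM (4.98). *Atp13a4*, *Igsf1* and *Lgi4* completed the named genes, with log2 fold changes of 5.59, 5.00 and 4.87. No sign changed under any alternative run, but the size of some folds did. Without male replicate 3 *Cyp4f15* was at 6.90, without male replicate 4 *Gli2* at 6.02 and without female replicate 3 *Igsf1* at 5.66. With nuclei of at most 1% mitochondrial transcripts *Lgi4* was at 6.78, *Pipox* at 6.49 against 4.79, *Hif3a* at 6.48, *Gli1* at 5.85 and *Lgr6* at 4.67, and the value of *Dbx2* was higher by 1.41. With female libraries alone *Gpr179* was at 6.73, *Cyp4f15* at 6.70, *Lgr6* at 6.26 and *Gli2* at 5.95, and with male libraries alone *Igsf1* was at 5.85 and *Hif3a* at 5.62.

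**Figure D2:**
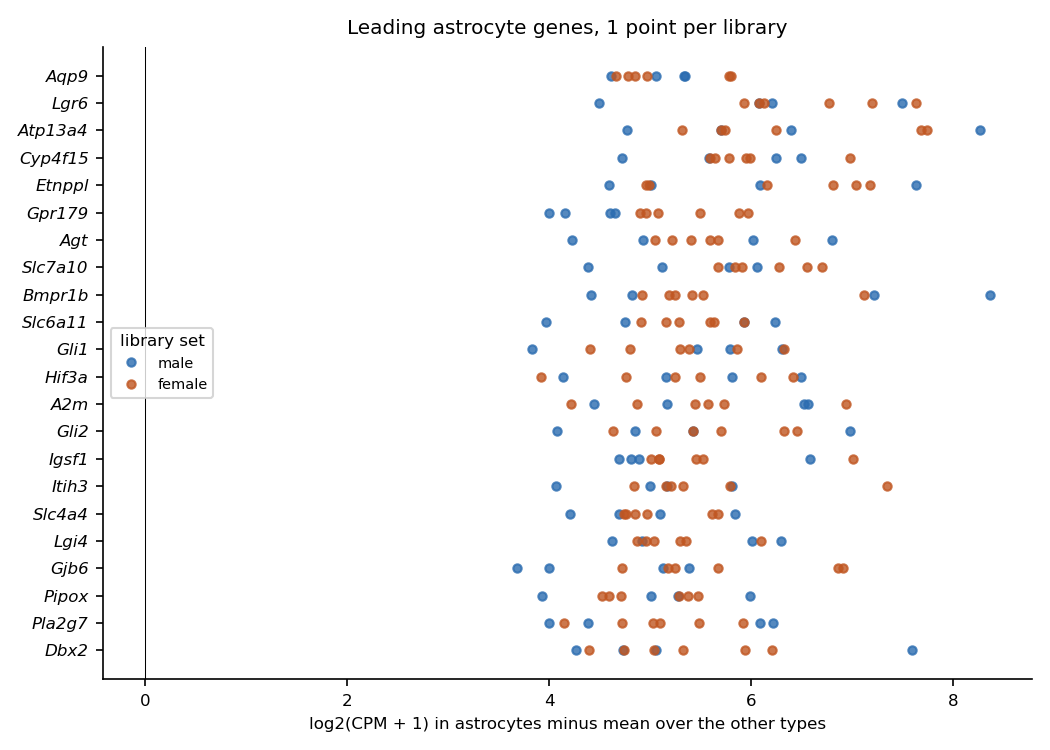
Difference in log2(CPM + 1) between astrocytes and the mean of the other cell types of the same library (x axis) for the 22 leading genes with names (y axis), 1 point per library, male in blue and female in orange. Every point lies to the right of 0, as the choice of these genes required, and male and female points are interspersed for most genes.

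Lists of genes by function showed where the astrocyte pattern was strong. In the glutamate, GABA and glycine list 8 of 14 members that passed the filter were highest in astrocytes, and *Slc1a2* and *Slc1a3*, the glutamate transporters GLT-1 and GLAST, were at 2915 ± 278 and 3371 ± 587 CPM. In the list for potassium, water, pH and gap junctions 10 of 17 were highest, with a median log2 fold change of 3.13. *Kcnj10*, the inward rectifier Kir4.1, was at 762 ± 129 CPM (log2 fold change 3.13), *Aqp4*, the water channel of endfeet, at 763 ± 183 CPM (4.39) and *Gja1*, connexin 43, at 1467 ± 383 CPM (4.48). For comparison, the median log2 fold change over all 9499 genes was -0.01, and 3.62% of them were highest in astrocytes. This share stands beside the counts of genes highest in astrocytes in all lists below as well. A pair of genes cannot be ranked by CPM, since 3' counts do not measure molecules per gene alike.

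Metabolic lists had smaller medians. Of 19 lipid and cholesterol genes 7 were highest in astrocytes, with a median of 2.06. *Apoe*, the main lipid carrier of the brain, was at 11813 ± 4797 CPM (3.31) and *Lcat*, which esterifies cholesterol on such particles, at 114 ± 42.3 CPM (4.61). The fatty acid genes *Fads2*, *Acsbg1*, *Acsl3* and *Acsl6* and the sterol sensor *Insig1* were the others. Of 17 genes of glycogen, glycolysis, lactate and fatty acid oxidation 7 were highest, with a median of 1.86. They included *Pygb*, a glycogen phosphorylase, at 414 ± 88.2 CPM (2.47), *Phkg1*, a subunit of phosphorylase kinase, at 368 ± 103 CPM (4.27), and *Ppp1r3c*, which targets a phosphatase to glycogen, at 89.5 ± 33.4 CPM (3.79). *Pcx*, pyruvate carboxylase, was at 298 ± 95.4 CPM (2.90).

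The renin-angiotensin list stood apart from *Agt* itself. Of its 12 members *Ren1*, renin, was not counted in both sets, 4 passed the filter and only *Agt* among these 4 was highest in astrocytes. The receptor gene *Agtr1a* was at 0.604 CPM in astrocytes and *Ace*, the converting enzyme, at 1.33 CPM. The widely expressed members *Lnpep*, an aminopeptidase, and *Atp6ap2*, the prorenin receptor, were at 140 ± 25.9 and 128 ± 32.3 CPM, with log2 fold changes of -0.04 and 0.07. In the list of protease inhibitors and matrix proteins, which holds *A2m*, 3 of 16 were highest in astrocytes. Besides *A2m* these were *Timp3*, an inhibitor of metalloproteinases, at 802 ± 113 CPM (1.95), and *Sparcl1*, a secreted matricellular protein, at 3736 ± 900 CPM (3.56). *Cst3*, cystatin C, was higher in microglia than in astrocytes, at 10666 against 5697 CPM.

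Hedgehog pathway genes were among the most pronounced. The pathway runs from the ligand *Shh* through the receptor *Ptch1* and the transducer *Smo* to the Gli factors, and *Ptch1* and *Gli1* are themselves targets. *Shh* was at 1.33 ± 0.956 CPM in astrocytes and 11.1 ± 3.10 CPM in neurons. *Ptch1* in astrocytes was at 2278, 1709, 1870 and 1543 CPM in male replicates 1 to 4 and at 1501 to 1784 CPM in female libraries around a median of 1668, so that only male replicates 1 and 3 lay above the female range. Its log2 fold change against the other types was 4.21 (SE 0.11). *Gli1* was at 133, 114, 105 and 116 CPM in male libraries and at 57.6 to 119 CPM in female libraries around a median of 86.4, with overlapping groups. *Gli3* (4.26) and *Gpr37l1* (4.07), an orphan receptor reported to act with *Ptch1*, were also highest in astrocytes in every library, as were 6 of the 12 members that passed in all. *Smo*, at 184 ± 16.8 CPM (3.01), was highest in 8 of 10 libraries. *Hhip*, which binds the ligand, was higher in fibroblasts, at 182 against 41.8 CPM, and the co-receptor *Cdon* was at 1.99 CPM in astrocytes. None of the 11 members tested was called between the sets at an adjusted p under 0.05 by edgeR or DESeq2. Over all genes edgeR called 4.59% higher and 2.25% lower in female libraries, so that few calls could come from 11 genes. By edgeR 1 member (9.09%) had an unadjusted p under 0.05, against 26.4% of all genes. After thinning to 1000 UMIs, 7.47 ± 2.21% of astrocytes held a *Gli1* UMI, against 0.0700% of neurons.

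Among receptors and factors of other pathways, 5 of 14 FGF, BMP and EGF members were highest in astrocytes, among them *Fgfr3* (494 ± 51.0 CPM, log2 fold change 4.42), *Ednrb*, the endothelin receptor B (372 ± 61.6 CPM, 4.29), and *Lrig1*, a brake on growth factor receptors (616 ± 91.3 CPM, 4.25). *Egfr* was highest in 6 of 10 libraries, and fibroblasts had a mean of 399 CPM against 364 in astrocytes. In the Notch and Id list *Hes5*, a Notch target, and *Id2*, an inhibitor of DNA binding, were highest, 2 of 11 in all. Over all genes tested the share was 3.62%. The ligand *Dll1* was at 1.35 ± 1.13 CPM in astrocytes and was higher in OPCs. Of 22 transmitter receptor genes 6 were highest. They were the AMPA receptor genes *Gria1* (3911 ± 1143 CPM, 4.14) and *Gria2* (1296 ± 198 CPM, 2.35), the GABA-A receptor genes *Gabrb1* (2.83) and *Gabrg1* (2.61), the NMDA receptor gene *Grin2c* (3.29) and the neurotensin receptor gene *Ntsr2* (800 ± 190 CPM, 4.60). The metabotropic glutamate receptor *Grm3* was higher in oligodendrocytes, at 1388 against 875 CPM, and *Grm5* was at 71.9 ± 47.8 CPM in astrocytes and 1085 in neurons.

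Of 13 synapse-organizing and phagocytic genes 3 were highest, among them *Gpc5*, a glypican, at 5873 ± 1176 CPM (4.27), and *Sparcl1*. *Mertk*, a receptor for engulfment, was higher in microglia, at 1734 against 528 CPM, and *Thbs1*, a thrombospondin, was at 0.0957 CPM in astrocytes. Among 15 regional patterning factors that passed, *Pax6* was the only one highest in every library, at 117 ± 33.4 CPM (4.09), beside 3.62% of all genes tested. *Otx2* (97.6 CPM, 4.28) and *Irx5* (61.2 CPM, 3.50) were raised against most types, but ependymal cells were higher in mean, at 117 and 82.9 CPM. *Tcf7l2*, a factor of thalamic neurons, was at 892 ± 146 CPM in astrocytes and 884 CPM in neurons. The telencephalic factor *Emx2* was at 0.259 CPM. Of 19 glial transcription factors 5 were highest, *Nfia*, *Rfx4*, *Rorb*, *Npas3* and *Trps1*, and *Sox10*, the factor of the oligodendrocyte lineage, was at 0.718 CPM.

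Lists linked to activation came next. Of 28 genes raised in reactive astrocytes, 15 did not pass the filter and only *Fbln5*, a matrix protein, was highest in astrocytes, at 177 ± 68.6 CPM (4.05). That is 1 of the 13 that passed, beside 3.62% of all genes tested. The median over the 13 that passed was -1.11. *Lcn2* was at 0 in all libraries, *C3* at 0.0278 CPM, *Serpina3n* at 13.0 ± 4.01 CPM and *Vim*, vimentin, at 15.8 CPM against 451 CPM in ependymal cells. Of 16 immediate early genes 7 passed the filter and none of these was highest in astrocytes, against 3.62% of all genes tested. The median over the 7 was -1.28, and *Fos* was at 9.39 CPM against 30.9 CPM in neurons. In the list for thyroid, steroid and retinoid handling none of 11 was highest in all libraries. *Hsd11b1*, which makes active glucocorticoid, was at 63.1 ± 18.3 CPM (4.05) and highest in 9, and *Dio2*, which activates thyroid hormone, was at 13.0 ± 4.23 CPM.

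**Figure D3:**
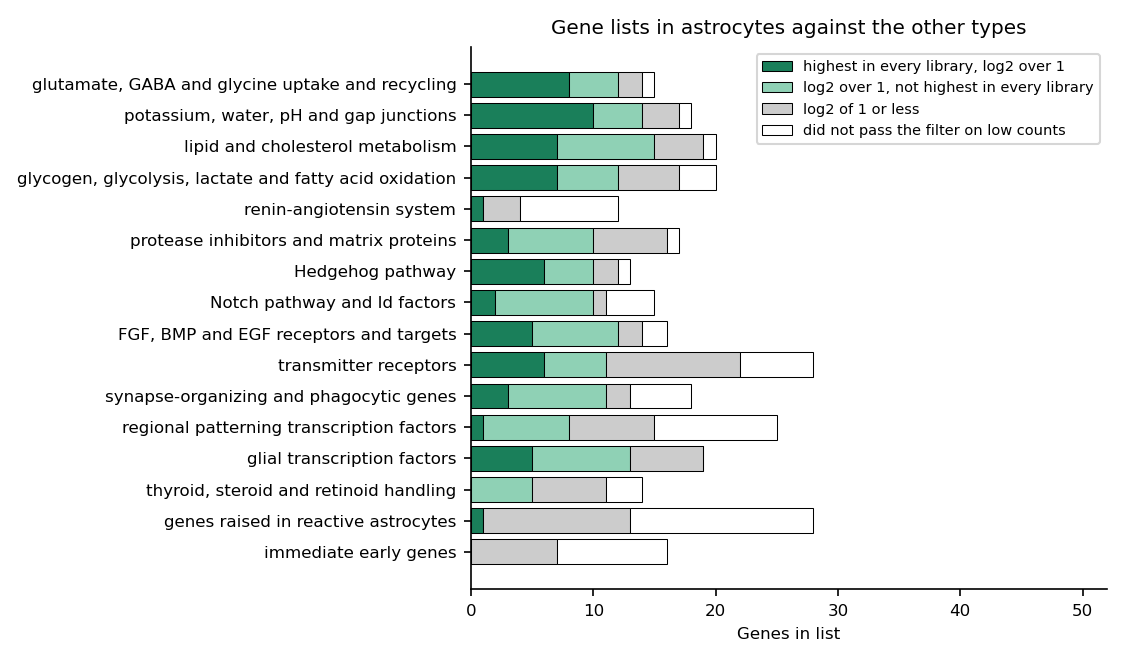
Number of genes (x axis) in each of 16 lists (y axis), split into genes highest in astrocytes in every library with a log2 fold change over 1, genes over 1 but not highest in every library, genes at 1 or less, and genes that did not pass the filter on low counts. The list for potassium, water, pH and gap junctions has 10 of 18 members in the first class, and the immediate early list has none.

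At the other end, 9 of 9499 genes (0.0947%) were lowest in astrocytes in every library with a log2 fold change below -1. The number was 4 with nuclei of at most 1% mitochondrial transcripts, 15 with sums of 20 nuclei or more and 24 with male libraries alone. The 9 were named after their values were seen. *Ankrd44* was at 21.5 ± 10.6 CPM (-3.41), *Elmo1*, an engulfment adaptor, at 53.5 CPM (-3.26), and *Cp*, ceruloplasmin, at 6.31 ± 2.80 CPM (-3.42). *Slc38a2*, a glutamine and alanine transporter of many cells, was at 35.5 ± 10.3 CPM (-2.42). The others were *Srgap2* (-2.33), *Tspan13* (-2.15), *Immp2l* (-1.70), *Sh3bp5* (-1.70) and *Apbb2* (-1.30).

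The numbered clusters made up unequal shares of the astrocytes. Astrocytes (2) held 8 of 307 nuclei in male replicate 1, 25 of 202 in replicate 2, 73 of 1049 in replicate 3 and 80 of 2067 in replicate 4, which are shares of 2.61%, 12.4%, 6.96% and 3.87%. In female libraries it held 27.1% to 33.4%. All 6 female libraries were above all 4 male libraries, and male replicate 2 was the highest male library. This order depended on the mitochondrial limit. With nuclei of at most 1% mitochondrial transcripts the mean share was 3.17% in male and 0.769% in female libraries, where 3 of 210 female astrocytes, all in female replicate 1, and 70 of 2844 male astrocytes were Astrocytes (2). The mean share was 6.45 ± 4.35% in male (n = 4) and 31.1 ± 2.51% in female libraries (n = 6). Genes that define the clusters also differed between the sets, so the shares are given with no test. The 95% Wilson interval was 1.33% to 5.06% in male replicate 1 and 8.53% to 17.6% in male replicate 2, and the intervals cover counting error only. Doublet calls fell on 48 of the 80 Astrocytes (2) of male replicate 4.

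The depth of the clusters differed in opposite directions. In male libraries Astrocytes (2) had fewer UMIs per nucleus than Astrocytes (1), with medians of 2334 against 5222, 3063 against 3301, 1610 against 4087 and 962 against 2917. In all 6 female libraries Astrocytes (2) had more, 2933 to 4870 against 1342 to 2579. The mitochondrial percent was higher in Astrocytes (2) in 10 of 10 libraries, at 1.72% against 0.695% in male replicate 4, for example, and 2.76% to 3.61% against 1.33% to 1.98% in female libraries. Neuron markers summed to 1551, 675, 3091 and 5895 CPM in Astrocytes (2) of male replicates 1 to 4, against 978, 968, 2029 and 2801 CPM in Astrocytes (1). In female libraries they summed to 518 to 936 CPM in Astrocytes (2) and 716 to 1827 CPM in Astrocytes (1). Astrocytes (2) had the higher sum in male replicates 1, 3 and 4 and the lower one in male replicate 2 and all 6 female libraries. The part of depth, mitochondrial percent, doublets and neuron transcripts in the cluster differences was not tested.

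**Figure D4:**
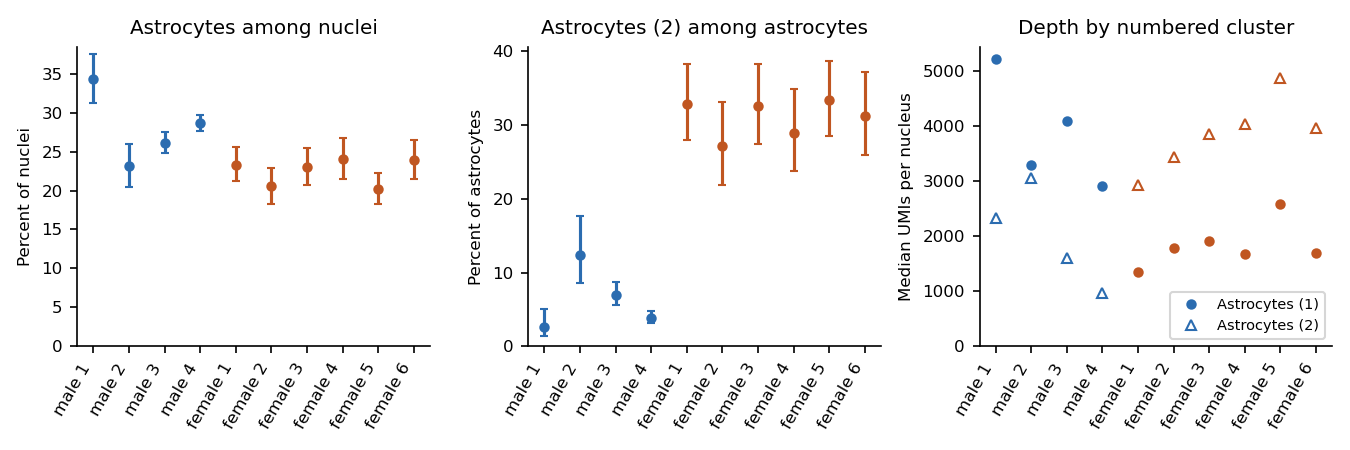
Astrocytes as percent of nuclei (left) and Astrocytes (2) as percent of astrocytes (middle) in each library with 95% Wilson intervals, and median UMIs per nucleus in Astrocytes (1) (circles) and Astrocytes (2) (triangles) of each library (right), male in blue and female in orange. The Astrocytes (2) share is 2.61% to 12.4% in male and 27.1% to 33.4% in female libraries, and triangles lie below circles in male and above them in female libraries.

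Gene levels in the numbered clusters were compared in the 9 libraries with at least 10 nuclei of each, which leaves out male replicate 1. Of 5853 genes tested, 116 (1.98%) were higher in Astrocytes (2) in all 9 libraries with a fitted log2 difference over 1, and 37 (0.632%) were higher in Astrocytes (1) by the same rule, or 56 without male replicate 3. Without the filter on low counts the numbers were 101 and 209. With female libraries alone they were 234 and 119, and with male libraries alone 222 and 211, where fewer libraries had to share the direction. As the clusters were cut from these genes, no p is given. *Aldoc*, an aldolase of glycolysis, was at 692, 257 and 215 CPM in Astrocytes (1) of male replicates 2 to 4 and at 1100, 433 and 350 CPM in Astrocytes (2). In female libraries it was at 290 to 468 CPM in Astrocytes (1) and 1400 to 2021 CPM in Astrocytes (2). Astrocytes (2) was the higher cluster in each library, and in female libraries the cluster ranges did not overlap. The log2 difference of Astrocytes (2) minus (1) was 1.68.

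Other genes higher in Astrocytes (2) with the largest differences were *Fam181b* (2.01), *Emc6*, of the membrane protein complex of the endoplasmic reticulum (1.90), *Mid1ip1* (1.83), the linker histone *Hist1h1e* (1.71) and *Pfn1*, profilin (1.69). The metallothioneins *Mt1* and *Mt2*, which bind zinc and copper, differed by 1.65 and 1.68, and *Mt1* in female libraries was at 382 to 1239 CPM in Astrocytes (1) and 2065 to 3484 CPM in Astrocytes (2). *Fabp7*, a fatty acid binding protein (1.67), *Phgdh*, the entry enzyme of serine synthesis (1.60), *Id3* (1.62), *Enho* (1.67), *Cldnd1* (1.67), *Cavin3* (1.63) and *Psenen*, a subunit of gamma-secretase (1.60), completed the 15. In the lists, *Sox9*, *Dbi*, *Ldhb*, *Cst3*, *Sparc*, *Id2* and *Olig1* were also counted as higher in Astrocytes (2). So were 1 of 3 oligodendrocyte markers and 1 of 11 regional patterning factors tested. Such genes were 2 of 10 tested in the Notch and Id list, 2 of 15 in the matrix list and 2 of 16 in the metabolic list. They were 2 of 17 in the lipid list, 2 of 19 astrocyte markers, 1 of 3 OPC markers and 1 of 18 glial transcription factors. No list held more than 2 and many held none, beside 1.98% of all genes tested. The genes higher in Astrocytes (1) were mostly noncoding. *Pard3bos1*, an antisense transcript of *Pard3b*, was at 40.4, 25.8 and 149 CPM in Astrocytes (1) of male replicates 2 to 4 and at 0, 15.5 and 13.5 CPM in Astrocytes (2). In female libraries it was at 84.5 to 228 against 11.7 to 39.7 CPM, so that Astrocytes (1) was higher in each library (log2 difference -2.61). *Tsix* (-1.94) and *Iqch* (-1.86) and 12 predicted genes made up the rest of the 15. The sources used do not give whether counting was by strand, and reads from an antisense gene cannot then be told apart from those of its partner.

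The markers that name astrocytes and the genes highest in astrocytes were looked up between the clusters. *Agt* was higher in Astrocytes (2) in 9 of 9 libraries, with a log2 difference of 0.66, and in 85.1% against 70.7% of nuclei thinned to 1000 UMIs. *A2m* had a log2 difference of -0.30 and was higher in Astrocytes (2) in 4 of 9 libraries. Of 344 genes highest in astrocytes 343 were tested between the clusters, 8 (2.33%) were higher in Astrocytes (2), and 11 (3.21%) in Astrocytes (1), against 1.98% and 0.632% of all genes tested. Over the 19 astrocyte markers tested between the clusters the median log2 difference was 0.37, against -0.02 over all genes. Named after their values were seen, the 8 were *Nkain4*, *Fxyd1*, *Aldoc*, *Id2*, *Gadd45g*, *Cxcl14*, *Cldn10* and 1 predicted gene. With female libraries alone 109 of the 115 genes of Astrocytes (2) tested were counted again, and with male libraries alone 43 of 110. Since the genes were chosen from the same libraries, these counts are a description.

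The annotation of the cluster genes was compared with that of all genes tested. The 116 genes higher in Astrocytes (2) had a median span, from annotated start to end with introns, of 4.82 kb (quartiles 2.46 and 8.67 kb), and all 116 were protein-coding, as were 97.3% of all genes tested. The 37 genes higher in Astrocytes (1) had a median span of 62.4 kb (quartiles 34.7 and 116 kb), and 26 of them (70.3%) were long noncoding RNAs, against 2.65% of all genes tested. The median over all tested genes was 44.3 kb (quartiles 19.2 and 100.5 kb), so that the spans of the first group were short and those of the second overlapped widely with all genes. Exons took 44.1% of the span in the first group, 3.48% in the second and 13.3% over all genes. Over protein-coding genes the median log2 difference of Astrocytes (2) minus (1) fell step by step with span. It was 0.66 in 369 genes of up to 5 kb, 0.28 in 717 genes of 10 to 20 kb, 0.05 in 1601 genes of 20 to 50 kb and -0.24 in 165 genes over 500 kb. Within each library only genes up to 10 kb and over 200 kb were compared. The median of the 752 genes up to 10 kb was 0.34 in male replicate 2, 0.69 and 0.85 in male replicates 3 and 4 and 0.43 to 0.53 in female libraries, and the median of the 624 genes over 200 kb was -0.35 to -0.15 across the 9 libraries. *Malat1*, a long RNA that stays in the nucleus, was lower in Astrocytes (2) in 9 of 9 libraries, at 133610 against 125544 CPM in male replicate 2 and at 119123 against 76993 CPM in female replicate 1, and it was named after its values were seen. The mitochondrial percent was also higher in Astrocytes (2) in these libraries, but the sizes of the differences did not rise in step. In male replicate 3 it was 0.730 against 0.376, with a median of 0.69 for genes up to 10 kb. In female replicate 6 it was 3.35 against 1.33, with a median of 0.50. The part of span, *Malat1* and mitochondrial percent in each other was not tested.

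**Figure D5:**
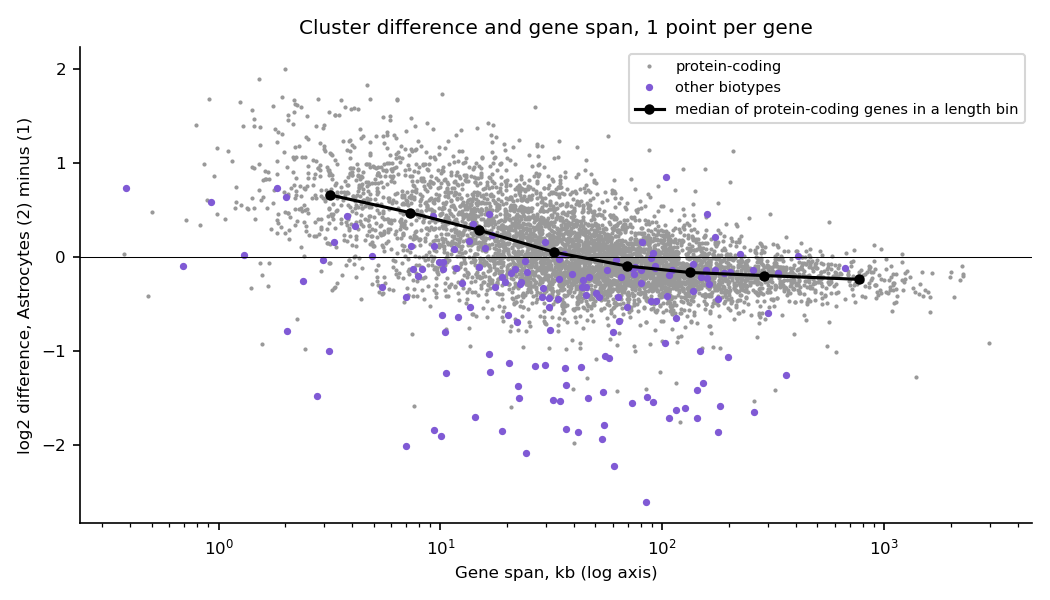
Log2 difference of Astrocytes (2) minus Astrocytes (1) (y axis) against gene span in kb (x axis, log scale) for each gene tested, protein-coding in grey and other biotypes in purple, with black points for the median of protein-coding genes in each length bin. The medians run from 0.66 in genes of up to 5 kb to -0.24 in genes over 500 kb.

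The library sets were compared in the astrocyte sums with edgeR's quasi-likelihood test. Of 9340 genes tested, 429 (4.59%) were higher in female and 210 (2.25%) lower at an adjusted p under 0.05 (Benjamini-Hochberg). With nuclei of at most 1% mitochondrial transcripts, which left 210 female and 2844 male astrocytes, 20 were higher and 9 lower, and with no limit to genes counted in both sets 744 and 587. Sex, the genes counted, depth, mitochondrial percent and the share of Astrocytes (2) differ between the sets and cannot be told apart. The methods and the submitters' notes name different versions of the counting software, without saying which libraries each was used for. Leaving out male replicate 2 raised the counts to 1465 higher and 888 lower, leaving out male replicate 1 gave 369 and 238, and leaving out any 1 of the other 8 libraries gave 143 to 266 higher and 127 to 141 lower. With Astrocytes (1) nuclei alone, a choice made after the data were seen, 100 genes were higher and 89 lower.

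The largest differences were in genes that were nearly absent from 1 set. *Xist*, the RNA that silences an X chromosome, was at 0, 0, 0.270 and 0.580 CPM in male replicates 1 to 4 and at 1778 to 2450 CPM in female libraries around a median of 1906 (log2 difference of female minus male 12.17, SE 0.31, edgeR adjusted p = 1.02e-11). The libraries thus matched their labels. *Prnp*, the prion protein, was at 409, 1473, 1120 and 807 CPM in male libraries and at 1.95 to 8.54 CPM in female libraries around a median of 5.28, with no overlap (-7.45, SE 0.41, edgeR adjusted p = 4.62e-08). *Atf7*, a transcription factor, was at 356, 241, 241 and 293 CPM in male and at 0.974 to 7.79 CPM in female libraries around a median of 3.59, again with no overlap (-6.26, SE 0.30, adjusted p = 8.80e-09). Both showed the same in neurons, with log2 differences of -7.51 and -6.21. Other genes with the smallest p were *Kcnq1*, a potassium channel (6.50), *Nlrc4* (5.22), *Spag6l* (4.20), *Myo3a* (8.43) and *Wdr89* (3.65) among those higher in female, and *Pabpn1* (-7.68), *Umad1* (-6.76), *Lats2*, a kinase of the Hippo pathway (-6.16), *Zfp934* (-5.08), *Ctnnd1* (-4.05), *Pgm1* (-3.39) and *Tnrc6a* (-2.22) among those lower.

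Genes highest in astrocytes were called at shares near those of all genes. Of the 344 genes highest in astrocytes 17 (4.94%) were higher and 5 (1.45%) lower in female libraries, against 4.59% and 2.25% of all genes tested, and their median log2 difference was 0.00. *Agt* had a log2 difference of 0.48 (adjusted p = 0.285) and *A2m* one of 0.33 (adjusted p = 0.387) by edgeR. *Gjb6* was at 224, 523, 225 and 265 CPM in male replicates 1 to 4 and at 509 to 623 CPM in female libraries around a median of 601. Male replicate 2 lay in the female range and the other male libraries below it (0.97, SE 0.23, edgeR adjusted p = 0.0239). *Aldoc* was at 122, 736, 279 and 235 CPM in male and at 868 to 1160 CPM in female libraries around a median of 976, with no overlap (1.58, SE 0.38, adjusted p = 0.0243). In Astrocytes (1) alone *Gjb6* had a log2 difference of 0.31 (adjusted p = 0.585) and *Aldoc* one of 0.31 (adjusted p = 0.751). Both calls rested on which libraries were used. With 1 library left out at a time, *Gjb6* was called in 5 of 10 fits, without male replicate 1 or 2 or female replicate 2, 5 or 6 (edgeR adjusted p up to 0.100 in the others, and 1.35 with adjusted p = 1.22e-05 without male replicate 2). *Aldoc* was called in 4 of 10, without male replicate 1 or 2 or female replicate 2 or 6 (adjusted p up to 0.0985).

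*Hes5* was at 46.5, 347, 120 and 100 CPM in male libraries and at 343 to 494 CPM in female libraries, where male replicate 2 again lay in the female range (1.61, edgeR adjusted p = 0.0330; in Astrocytes (1) alone 0.58, adjusted p = 0.552). *Id2* (1.30, adjusted p = 0.0419) and *Glul*, glutamine synthetase (0.98, adjusted p = 0.0178), were also higher in female libraries and had adjusted p values of 0.801 and 0.336 in Astrocytes (1) alone. *Hes5* was called only without male replicate 1 or 2 when single libraries were left out (adjusted p up to 0.124), *Id2* only without male replicate 2 (up to 0.143), and *Glul* in all but the fits without male replicate 3 or 4 (up to 0.0849). Male replicate 2 also had the highest mitochondrial percent of the male libraries and the largest share of Astrocytes (2) among them. *Fads2*, the delta-6 desaturase of polyunsaturated fatty acids, went the other way. It was at 543, 638, 674 and 484 CPM in male and at 208 to 317 CPM in female libraries around a median of 262, with no overlap (-1.10, SE 0.15, adjusted p = 0.000337), and the difference in Astrocytes (1) alone was -1.13 (adjusted p = 0.000101). It was -1.17 in neurons.

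Counts over the lists stand beside shares of 4.59% higher and 2.25% lower over all genes tested. None of the members tested in the Hedgehog list, the FGF, BMP and EGF list, the synapse list, the glial transcription factor list, the renin-angiotensin list, the reactive list or the immediate early list was called in either direction by edgeR. Of the 70 genes tested in them 13 (18.6%) had an unadjusted p under 0.05, against 26.4% of all genes, and DESeq2 called 2. In the potassium and water list *Gjb6* and *Kcnk2* (0.70) were higher and *Lrrc8a*, a volume-regulated anion channel (-4.46), lower in female libraries, 3 of 18 tested. In the lipid list *Sqle* was higher and *Fads2* lower, 2 of 19. In the metabolic list *Acadl*, *Aldoc* and *Ldhb* were higher, 3 of 19. *Sparc*, *Adora2b* and *Irx3* were higher in the matrix, transmitter receptor and patterning lists, 1 member in each. Markers of other types moved as well. Of 9 neuron markers tested 2 were lower, of 5 oligodendrocyte markers 1 was higher and 1 lower, of 4 OPC markers 1 was lower, and of 3 microglia markers and 3 ependymal markers 1 and 3 were higher. *Meg3* and *Cntnap2* of the neuron markers and *Lhfpl3* of OPCs were among those lower in female libraries. *Lhfpl3* was also abundant in neurons, at 1155 to 1909 CPM across libraries. *Cnp* of oligodendrocytes and *Tmem212*, *Rsph1* and *Ccdc153* of ependymal cells were among those higher. With single libraries left out, *Lrrc8a*, *Acadl*, *Fads2* and *Tmem212* were called in all 10 fits. *Kcnk2*, *Lhfpl3* and *Cntnap2* were called only without male replicate 1 or 2, and *Sqle* and *Irx3* only without male replicate 2 (edgeR adjusted p up to 0.193 in the other fits). *Ldhb* was called in 6 of 10 fits, *Meg3* in 4, *Sparc* in 7, *Adora2b* in 9, and *Cnp* and *Ccdc153* in 8 each, and *Rsph1* in 4 of the 6 fits that tested it.

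The set differences ran along with the cluster genes and with length. Of the 116 genes higher in Astrocytes (2), 44 were among the 429 genes higher in female libraries, which is 37.9% of the 116 and 10.3% of the 429, and none was among the lower genes. Their median log2 difference between the sets was 1.10 in all astrocytes and 0.32 in Astrocytes (1) alone, where 1 of 110 (0.909%) was called higher, against 1.25% of all genes in that fit. Genes higher in female libraries had a median span of 9.12 kb and those lower 56.0 kb, against 32.5 kb over all genes tested. The part of the cluster shares in the set differences was not tested beyond these values.

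To see where astrocytes differed from neurons in the set comparison, the interaction of cell type and set was tested with the library as a block. Of 14881 genes, 143 (0.961%) had a set difference, female minus male, that was higher in astrocytes than in neurons, and 133 (0.894%) one that was lower, at an edgeR adjusted p under 0.05. With RLE in place of TMM scaling the split was 85 against 199. *Hsd17b4*, a peroxisomal enzyme of fatty acid oxidation, was at 64.6, 81.4, 50.7 and 65.5 CPM in male astrocytes and at 240 to 328 CPM in female astrocytes around a median of 260. In neurons it was at 44.9 to 53.7 CPM in male and at 48.1 to 89.2 CPM in female libraries. The female astrocytes lay above all male astrocytes without overlap, while the neuron groups overlapped (interaction 1.89 on the log2 scale, SE 0.16, edgeR adjusted p = 2.41e-07). *Zfp36l2*, which destabilizes mRNAs, overlapped between the sets in astrocytes, at 51.2 to 145 CPM in male and 42.7 to 91.5 CPM in female libraries, and was at 9.03 to 12.7 CPM in male and 0.295 to 2.18 CPM in female neurons, with no overlap (interaction 2.90, SE 0.33, edgeR adjusted p = 4.01e-05). With oligodendrocytes as the other type the interaction of *Hsd17b4* was 0.93 (adjusted p = 0.0348) and that of *Zfp36l2* 0.85 (adjusted p = 0.544), and with nuclei of at most 1% mitochondrial transcripts that of *Zfp36l2* was 2.37 (adjusted p = 0.108).

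*Heph*, hephaestin, a copper-dependent ferroxidase, had the most negative named interaction. It was at 57.5, 68.4, 50.4 and 75.9 CPM in male astrocytes and at 137 to 195 CPM in female astrocytes around a median of 157, and at 0.139 to 0.567 CPM in male neurons and in female neurons at a lowest value of 23.9 CPM and a median of 34.1. Female libraries were higher in both cell types without overlap, by 1.40 on the log2 scale in astrocytes and by 6.19 in neurons (interaction -4.71, SE 0.30, edgeR adjusted p = 1.63e-09). *Acadl*, a mitochondrial acyl-CoA dehydrogenase, had the same order, with 43.7 to 79.8 CPM in male and 91.2 to 191 CPM in female astrocytes, and 2.78 to 3.33 CPM in male and 25.1 to 39.8 CPM in female neurons (interaction -1.90, adjusted p = 0.000167). Against oligodendrocytes *Heph* had an interaction of -4.63 and *Acadl* one of -0.52 (adjusted p = 0.403). *Dbp*, a clock-controlled transcription factor, had an interaction of 1.16 (adjusted p = 0.000302), and with Astrocytes (1) nuclei alone it was -0.062. Of the 143 genes 28 were higher in Astrocytes (2), which is 19.6% of the 143 and 24.1% of the 116, beside 1.98% of all genes tested between the clusters and 0.961% of all genes tested for the interaction. The 143 had a median span of 10.0 kb and the 133 one of 87.1 kb, against 25.9 kb over all genes tested. With oligodendrocytes in place of neurons 16 and 45 genes were called, and with Astrocytes (1) nuclei alone 13 and 78. The first count was 33 to 78 without any 1 of male replicates 3 and 4 and the 6 female libraries. The second was 675 without male replicate 2, 220 to 239 without male replicate 1 or female replicate 1 or 5, and 74 and 84 without male replicates 3 and 4.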

How the data were processed

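Per the labels and methods, the authors made nuclei by mechanical and detergent lysis, built 10x Genomics 3' v3 libraries, counted UMIs with Cell Ranger (version 6.1.1 and build mm10 in the submitters' processing notes, an earlier version in the methods; the sources used name no annotation, nor which libraries each version counted), removed nuclei with under 200 genes or over 5% mitochondrial transcripts and clusters that they judged doublets or poor in quality, and clustered with Seurat after Harmony. The deposited matrix holds raw counts of UMIs for 33502 gene symbols, and the deposited metadata hold library, sex, cluster name and the authors' mitochondrial percent of each nucleus. The metadata's further 22 columns were not used. Matrix sums equal the deposited UMI totals in all 20503 nuclei. The 13 mitochondrial genes hold 0 UMIs in male and 562659 in female nuclei, while the deposited percent is above 0 in 12997 of the male nuclei, and these genes were left out.

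UMIs were summed per library and cell type, or per library and numbered cluster, and sums under 10 nuclei were left out. Genes needed 20 UMIs in each set. The fits used edgeR 4.0.16 in R 4.3.3 (quasi-likelihood F tests after filterByExpr and TMM scaling, with Benjamini-Hochberg adjustment over all genes tested and calls at 0.05) and limma 3.58.1, with DESeq2 1.42.0 as an alternative. The library was a block between types and clusters and there was no covariate between sets. A gene was counted as highest or lowest when it was so in every library with a log2 fold change past 1. Shares with a UMI were taken from nuclei thinned to 1000 UMIs, doublets were called per library after the method of Scrublet, and shares of nuclei were compared by an exact permutation test (scipy 1.17.1). The fits were also run on simulated counts with added changes, drawn with a fixed spread for all genes and no differences between libraries beyond depth. Those runs scored adjusted p values and not the rule of every library, so they do not measure error rates in these libraries. Spans are GENCODE vM21 (GRCm38), in which 95.8% of symbols matched 1 gene, and promoters are from RefSeq.

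The members and all gene lists were chosen with earlier results of these data known. Genes were named by rule: *Agt*, *A2m*, the 30 largest type differences at 50 CPM or more, the 15 largest cluster differences each way at 20 CPM or more, the 10 smallest p values each way between sets and in the interaction, and list members. Some of the genes so chosen are not reported here.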

Additional observations from a re-analysis of the deposited data

Results flagged for a closer look

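In 54 groups of library values examined, 2 held a library far from the rest of its group, and chance alone gives about 1 in 20. Among female libraries, doublet calls took 2.29% of the astrocytes of female replicate 6 and 0% to 0.847% of those of the other 5. Among male libraries, *Gjb6* was at 523 CPM in replicate 2 and at 224 to 265 CPM in the other 3.

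For 19 named genes the set difference, female minus male, in astrocytes differed from that in neurons by edgeR's interaction test at an adjusted p under 0.05, also in every fit with a single library left out in which they were tested. On the log2 scale the interaction was 3.35 for *Spag6l*, 1.89 for *Hsd17b4*, 4.28 for *Ftl1-ps1*, 4.77 for *1700030F04Rik* and 2.90 for *Zfp36l2*. It was 1.71 for *Wdr89*, 1.16 for *Dbp*, 1.57 for *Adh5* and 1.33 for *Tubb2b*. With nuclei of at most 1% mitochondrial transcripts the call was lost for *Wdr89* (1.00, edgeR adjusted p = 0.359), *Dbp* (0.29, 0.913), *Adh5* (0.87, 0.795), *Tubb2b* (0.27, 0.940), *Ftl1-ps1* (3.45, 0.416) and *Zfp36l2* (2.37, 0.108). With Astrocytes (1) nuclei alone it was lost for *Adh5* (0.66, adjusted p = 0.350), *Tubb2b* (0.037, 0.981) and *Dbp* (-0.062, 0.953). Of these, *Spag6l* is a gene of motile cilia and was at 598 CPM in ependymal cells, against 34.8 CPM in astrocytes. Interactions below 0, where the set difference was lower in astrocytes than in neurons, were -4.71 for *Heph*, -1.90 for *Acadl* and -1.97 for *Agmo*. They were -2.59 for *Ttll8*, -1.62 for *Ggnbp1*, -1.31 for *Ppp2r5a* and -1.27 for *Mettl23*. In astrocytes *Heph* and *Acadl* were themselves higher in female libraries. The predicted genes *Gm17660*, *Gm48228* and *Gm49164* had interactions of -4.57, -2.53 and -2.70. With oligodendrocytes in place of neurons, only these predicted genes, *Hsd17b4* and *Heph* kept the call (edgeR adjusted p up to 0.0397). It was lost for all other genes named here, for example *1700030F04Rik* (0.26, adjusted p = 0.967) and *Ttll8* (-0.79, 0.838). Reads of a pseudogene such as *Ftl1-ps1* and of its parent gene may be split by the counting, so its value is uncertain.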

How the results depend on the processing

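The log2 fold changes of *Agt* and *A2m* kept their direction under every alternative run, between 5.13 and 5.40 and between 4.88 and 5.33 with single libraries left out. Of 30 leading genes 14 had a fold change that moved by over 1.5 times in 25 gene and setting pairs, with no change of sign. The number of genes highest in astrocytes stayed within 1.5 times of 344 under all of them (342 to 370 with single libraries left out). Genes lowest in astrocytes numbered 9 to 11 with single libraries left out, 4 with nuclei of at most 1% mitochondrial transcripts, 15 with sums of 20 nuclei or more and 24 with male libraries alone. Genes higher in Astrocytes (1) numbered 209 without a filter on low counts and 33 to 56 with single libraries left out, and those higher in Astrocytes (2) 112 to 159. The cluster counts, Astrocytes (2) then (1), were 234 and 119 with female and 222 and 211 with male libraries alone. The share of Astrocytes (2) was 0.769% in female and 3.17% in male libraries at the 1% mitochondrial limit, where the female mean was below the male mean, and the cluster comparison gave no value there, since only 1 library kept both sums.

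The difference in astrocyte share ran from -7.18 to -3.45 points with single libraries left out (exact permutation p from 0.0238 to 0.0952). At the 1% limit, which in female libraries itself removes a larger part of astrocytes than of neurons, it was -16.7 points (p = 0.0381, exact). Without doublet calls it was -5.45 points (p = 0.0476, exact). Genes higher and lower in female libraries numbered 20 and 9 at the 1% limit, 744 and 587 with no limit to genes counted in both sets, 100 and 89 with Astrocytes (1) nuclei alone, and 596 and 301 with DESeq2. With single libraries left out they ran from 143 to 1465 and from 127 to 888, the highest both without male replicate 2. With the replicate number as a replicate block they numbered 96 and 89. The numbers do not pair the samples: correlations of same-numbered libraries were 0.0479, -0.173, -0.0938 and 0.0564, and none of the 4 male libraries correlated best with its own number.

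Interaction counts, higher then lower in astrocytes, were 9 and 29 at the 1% limit, 56 and 275 with no limit to genes counted in both sets, 16 and 45 against oligodendrocytes and 13 and 78 with Astrocytes (1) nuclei alone. Higher counts were also 85 with RLE size factors, 222 without the filter and 74 with DESeq2. With single libraries left out they ran from 33 to 146 and from 74 to 675. Against oligodendrocytes the sign changed for *Spag6l* (-1.89), *Ftl1-ps1* (-1.99), *Wdr89* (-0.74) and *Agmo* (0.33), and with Astrocytes (1) nuclei alone for *Dbp* (-0.062). Over all alternatives, set differences of named and list genes kept their side of the threshold in 606 gene and setting pairs and lost the call in 135 with no change of sign, and interactions kept it in 319 and lost it in 18. The causes were not tested. The choices of female, male or Astrocytes (1) data alone were made after seeing the data. Female astrocyte sums held 578074 to 1174036 UMIs, and how far depth limits the results for low genes was not tested. Interval widths cover counting error only.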
